A study of Drosophila melanogaster with 4 samples.

Results

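The heterochromatic scaffolds of the Y and the X chromosome (YHet and XHet in FlyBase release 5) were examined in consecutive windows of 1 kb, counted from position 1 to the length in the file headers. YHet, 347038 bp long, gave 348 windows and XHet, 204112 bp long, gave 205, together 553 of the 139719 windows of the 13 sequences with clusters. The windows follow from position alone. Trimethylation of lysine 9 of histone H3 (H3K9me3) had been mapped by ChIP-seq, the sequencing of DNA that an antibody to the mark pulls down, in 2 ChIP libraries from Drosophila melanogaster embryos of the wild-type strain Oregon-R aged 14 to 16 h. The embryos came from population cages and were crosslinked with 1.8% formaldehyde, and the labels give no sex and do not say whether the libraries came from separate collections. The labels also name 1 input library for each ChIP library, whose values were not used here. Each ChIP library had its own list of enriched regions ("clusters"), and a further list stood for the set of both replicates.

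H3K9me3 is the histone mark typical of constitutive heterochromatin, deposited by methyltransferases such as Su(var)3-9 and bound by the protein HP1. In Drosophila the Y chromosome is almost wholly heterochromatic: it carries male fertility genes that are expressed in the testis, embedded in repeats, and it is present only in males. The heterochromatin of the X lies between the euchromatic arm and the centromere, and both sex chromosomes carry arrays of ribosomal RNA genes. The lists give positions and scores but no gene names, so the regions below are given by position on release 5.

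Most of the Y scaffold was marked, in many blocks along its whole length, whereas marking on the X scaffold was concentrated in a pair of long blocks. The longest Y block covered in both libraries was 20206 bp long, and the X pair 29926 and 19375 bp. Clusters covered 60.2% of YHet in replicate 1 and 56.7% in replicate 2 (58.5% ± 2.49, SD, n = 2), and 29.8% and 27.8% of XHet (28.8% ± 1.42, SD, n = 2). Within each library the Y share exceeded the X share by 30.4 and 28.9 percentage points (29.7 ± 1.08, SD, n = 2), a difference many times the spread between the libraries. In the series-wide list the shares were 67.6% for Y and 37.0% for X. An exact two-sided sign-flip permutation test of this difference cannot go below p = 0.5 with 2 libraries, so none was made, and these and all other comparisons are descriptions with their spread.

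A window was called marked where clusters covered at least 50% of it. Replicate 1 marked 213 Y windows (61.2%) and 61 X windows (29.8%), against 15.4% over all 13 sequences, and replicate 2 marked 198 (56.9%) and 57 (27.8%), against 14.9%. On Y 188 of 348 windows (54.0%) were marked in both libraries, and on X 55 of 205 (26.8%); the share over all sequences was 14.0%. Windows marked in neither library numbered 125 on Y (35.9%) and 142 on X (69.3%), against 83.6% over all sequences. The libraries disagreed on 35 Y windows (10.1%) and 8 X windows (3.90%), against 2.34% over all sequences. Disagreement was possible only where at least 1 library marked a window, so these shares rise with marking. It held for 35 of 223 such windows on Y, 8 of 63 on X and 3276 of 22850 over all sequences. Of the 35 on Y, 25 were marked in replicate 1 only (7.18% of Y windows, against 1.44% of all windows) and 10 in replicate 2 only (2.87%, against 0.909%).

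Most windows were wholly covered or wholly bare in both libraries, but partly covered windows were more frequent on both scaffolds than over all sequences. Every per-library cluster was at least 1301 bp long, longer than a window, which by itself favours wholly covered and wholly bare windows. Both libraries covered every base of 156 Y windows (44.8%) and 50 X windows (24.4%), where all sequences gave 11.6%. No base was covered by either library in 100 Y windows (28.7%) and 134 X windows (65.4%), where all sequences gave 81.6%. A further 83 Y windows (23.9%) and 18 X windows (8.78%) were partly covered in at least 1 library, against 6.19% over all sequences. Both scaffolds thus had larger shares of marked windows than the genome-wide share.

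**Figure D1:**
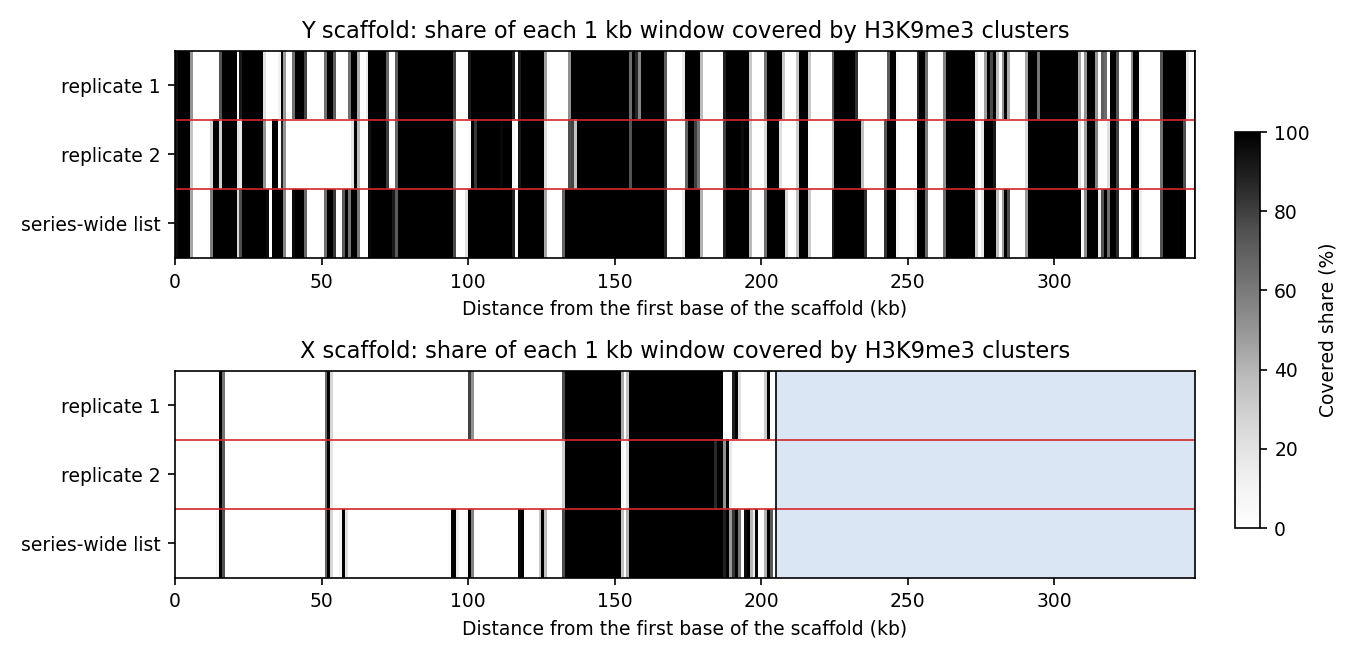
Share of each 1 kb window covered by H3K9me3 clusters (white 0%, black 100%) along the Y scaffold (top) and the X scaffold (bottom), by distance from the first base of the scaffold in kb, with a row for each library and the series-wide list; pale blue lies beyond the end of the X scaffold. Black blocks recur along all of Y, while those of X lie mostly beyond 132 kb.

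On Y the blocks alternated with gaps of limited length. The 2 libraries shared 33 stretches covered in both, with a median of 3449 bp and a longest of 20206 bp, and 33 stretches covered in neither, with a median of 3429 bp and a longest of 7991 bp. Of the shared blocks 14 were at least 5 kb long and 4 at least 10 kb. Of the gaps 13 were at least 5 kb long and 0 reached 10 kb. Blocks made up 53.6% of the scaffold, gaps 36.6%, and bases covered in exactly 1 library 9.81%.

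The longest Y block lay at 75332 to 95537. It was followed by 136652 to 155129 (18478 bp), 294531 to 308222 (13692 bp) and 262486 to 273162 (10677 bp). Blocks of 9260, 9132 and 9079 bp lay at 158447 to 167706, 117095 to 126226 and 102872 to 111950. The list of the 10 longest was completed by 336379 to 344757 (8379 bp), 224610 to 232838 (8229 bp) and 22847 to 30198 (7352 bp). Of these 10 blocks, 5 lay between 75332 and 167706, and the others were spread from 22847 to 344757. All 10 were covered to 100% in the series-wide list.

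The 10 longest Y gaps were of similar length, from 6004 to 7991 bp, and lay between 5501 and 336262, with none from 51366 to 126466. The longest was at 216322 to 224312. Gaps of 7918, 7777 and 7736 bp lay at 234356 to 242273, 126467 to 134243 and 179378 to 187113. Those of 7244, 7174 and 6936 bp lay at 5501 to 12744, 329089 to 336262 and 246050 to 252985. The remaining gaps, of 6577, 6110 and 6004 bp, lay at 44789 to 51365, 284436 to 290545 and 167841 to 173844. In the series-wide list 8 of these gaps stayed at or below 5.89% covered, while those at 234356 and 126467 were covered to 20.1% and 24.8%. Whether any of these gaps holds unsequenced bases was not measured.

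Across Y, coverage varied in bins of 50 kb without a bare end. It was lowest at 42.1% ± 0.523 between 200 and 250 kb and highest at 78.7% ± 3.88 between 100 and 150 kb (SD, n = 2). The first bin was covered to 49.4% ± 1.79, the second to 62.2% ± 7.32, the bin from 150 kb to 62.3% ± 1.12, and the final bins to 56.5% ± 1.84 and 58.2% ± 1.97. The second bin differed most between the libraries, at 67.4% in replicate 1 and 57.0% in replicate 2.

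The X scaffold fell into a sparse, a dense and a mixed portion, a division made after the values were seen. Its limits are the outer ends of the 2 stretches, each of 10 kb or more, that both libraries covered. The sparse portion, positions 1 to 132704, was covered to 4.01% in replicate 1 and 2.74% in replicate 2 (3.37% ± 0.901, SD, n = 2). The dense portion, 132705 to 184708, was covered to 95.7% and 94.8% (95.3% ± 0.660, SD, n = 2) and held 84.3% of all covered bases of the scaffold. The remaining 19.4 kb were covered to 29.5% and 19.6% (24.5% ± 6.96, SD, n = 2). Of the 133 windows of the sparse portion, 4 were marked in both libraries and 124 were bare in both. Of the 52 windows of the dense portion, 49 were marked in both. Whether the bare stretches of X hold unsequenced bases was not measured.

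No stretch of Y of the same width was as bare as the sparse portion of X. The least covered 132.7 kb of Y, placed anywhere along the scaffold, was still covered to 48.8% and 47.1% in the 2 libraries and to 54.7% in the series-wide list. The sparse portion of X reached 9.81% in the series-wide list.

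Few blocks and long gaps made up the X pattern. Both libraries covered 5 stretches. The long ones were at 154783 to 184708 (29926 bp) and 132705 to 152079 (19375 bp), separated by a gap of 2218 bp that neither library covered. Another, of 2130 bp, followed at 184847 to 186976, and the others, at 51337 to 53187 (1851 bp) and 15006 to 16616 (1611 bp), stood alone in the sparse portion. Neither library covered 53266 to 100205 (46940 bp), 16723 to 51336 (34614 bp), 101519 to 132237 (30719 bp) or 1 to 14944 (14944 bp). These 4 gaps, and a gap of 9490 bp at 192206 to 201695, were each longer than the longest gap of Y in the per-library lists. The series-wide list covered the gap of 9490 bp to 42.0% and broke it into shorter pieces, so its comparison with Y does not extend to that list. It covered the gaps at 53266 and 101519 to 7.94% and 12.1%, and the remaining ones to at most 0.248%.

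**Figure D2:**
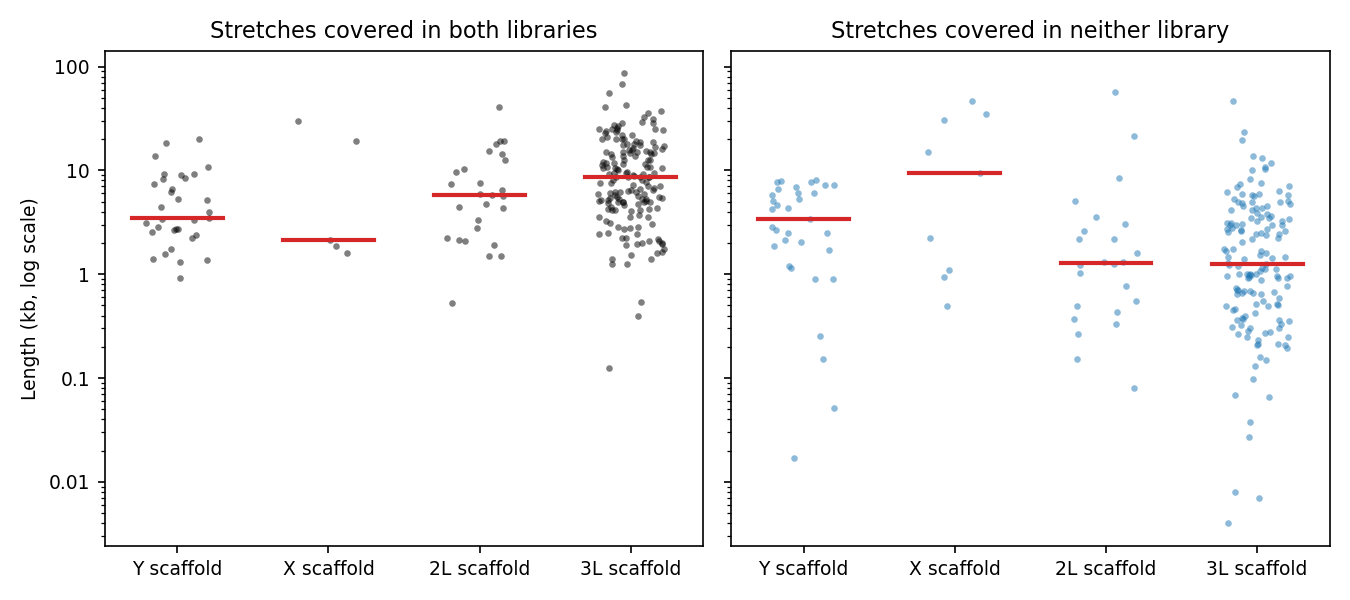
Length in kb (log axis) of each stretch covered in both libraries (left, black) and in neither library (right, blue) on the Y, X, 2L and 3L heterochromatic scaffolds; each point is a stretch, points are spread sideways for visibility and red bars are medians. Gaps on Y end below 8 kb, whereas X, 2L and 3L each have gaps above 40 kb.

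The scaffold of 2L, the closest to Y in length with 369 windows, and the scaffold of 3L were set beside Y and X. On 2L 63.1% of windows were marked in both libraries and on 3L 78.7%, above Y and X. Marked and unmarked windows changed over more often on Y, at 15.9 and 15.3 changes per 100 kb (15.6 ± 0.407, SD, n = 2), than on 2L (9.08 ± 0.575), 3L (8.61 ± 0.387) or X (5.39 ± 2.08). Unplaced sequence (U) was nearer to Y, at 17.0 ± 0.450 changes per 100 kb. On X the count was 14 changes in replicate 1 and 8 in replicate 2, so its rate depends on the library.

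The longest gap was 56724 bp on 2L and 47039 bp on 3L, and 122377 bp on U, all longer than the 7991 bp of Y. The median gap was shorter on 2L (1282 bp) and 3L (1264 bp) than on Y (3429 bp). Gaps on Y therefore spanned a narrower range of lengths than on 2L and 3L, longer in the middle and without a long extreme. The 3L scaffold and U are longer and held more gaps, 151 and 1022 against 33 on Y, and more gaps allow a longer extreme. Unsequenced bases in the gaps of 2L, 3L and U were not measured either. The scaffolds of 2R and 3R were not compared.

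The number and size of clusters followed the same contrast. YHet held 33 clusters in replicate 1 and 32 in replicate 2, or 9.37 ± 0.204 per 100 kb (SD, n = 2). XHet held 7 and 6, or 3.18 ± 0.346 per 100 kb. Median cluster length was 4419 and 4051 bp on Y (4235 ± 260, SD, n = 2) and 1929 and 1990 bp on X. The longest cluster of X, 32333 bp in replicate 1 and 29926 bp in replicate 2, exceeded the longest of Y, 20650 and 20206 bp. In the series-wide list the order was reversed, at 35554 bp on Y and 32465 bp on X. The longest runs of windows marked in both libraries were of similar length, 31 windows on Y and 32 on X. A median over so few X clusters describes mainly the short ones, since the 2 long clusters hold most of the covered bases.

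The authors' score of each cluster behaved as a base-2 logarithm, so a difference of 1 stands for a 2-fold ratio. In replicate 1 277 of 2726 distinct scores had a partner exactly 1 higher (within 1e-08) and 214 had one higher by log2 of 3, while steps of the natural or decimal logarithm of 2 and 3 gave 0 partners; replicate 2 gave 303, 212 and 0 of 2815. What the ratio sets against what is not stated, and the reads behind each cluster are unknown. Scores are therefore read within a list, and score differences between the libraries are given below as values only.

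On Y, scores ran from 1.33 to 3.72 with a median of 2.62 in replicate 1, and from 1.36 to 3.45 with a median of 2.46 in replicate 2. Of the Y clusters, 27 of 33 in replicate 1 and 24 of 32 in replicate 2 reached the median of their whole list, 1.96 and 1.99. On X 4 of 7 and 4 of 6 did. The same counts were 19 of 24 and 22 of 27 on 2L, 122 of 158 and 122 of 160 on 3L, and 961 of 1110 and 940 of 1132 on U.

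The 3 highest scores on Y in replicate 1 belonged to 262431 to 273186 (3.72), 316298 to 317653 (3.65) and 22097 to 30198 (3.51). In replicate 2 they belonged to 262486 to 273162 (3.45), 22847 to 30511 (3.40) and 75332 to 95537 (3.21). The same block near 262 kb led both lists, and the block near 22 kb was among the first 3 in both. The short cluster at 316298, 1356 bp long, had no counterpart in replicate 2, where the shortest cluster of the whole list is 1301 bp; the series-wide list had a cluster of 2029 bp there with a score of 4.06, its highest on Y.

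The lowest Y scores lay mostly in short clusters. In replicate 1 they were 1.33 at 35894 to 37481, 1.44 at 53124 to 54705 and 1.58 at 51366 to 53106. In replicate 2 they were 1.36 at 177212 to 178619, 1.46 at 32991 to 34988 and 1.53 at 212714 to 216024. Across Y clusters, length and score were related with Spearman's rho of 0.472 (33 clusters) in replicate 1 and 0.609 (32 clusters) in replicate 2; clusters of a library share its reads and depth and are not independent replicates.

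**Figure D3:**
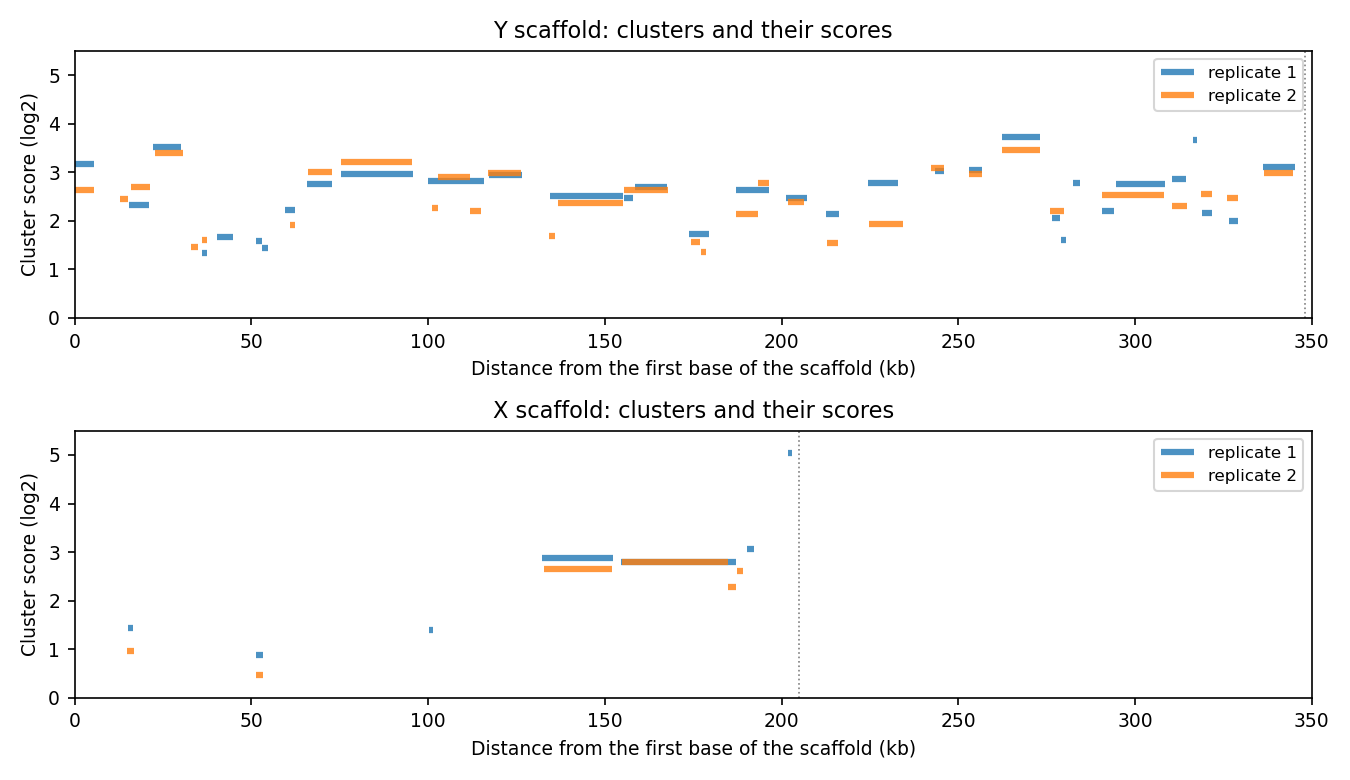
Clusters of replicate 1 (blue) and replicate 2 (orange) drawn as bars from start to end, by distance from the first base of the scaffold in kb, at the height of their log2 score; the dotted line marks the end of each scaffold. Y clusters lie between 1.33 and 3.72 along the whole scaffold, and X clusters before 132 kb lie at or below 1.43.

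On X the scores separated by position. The clusters before the dense portion scored 1.43 at 15006 to 16616, 0.89 at 51337 to 53265 and 1.40 at 100206 to 101518 in replicate 1. In replicate 2 the first of these scored 0.97 at 14945 to 16722 and the second 0.46 at 51337 to 53187, and replicate 2 had no cluster at the last. The long clusters scored 2.88 at 132238 to 152437 and 2.80 at 154656 to 186988 in replicate 1, and 2.66 at 132705 to 152079 and 2.79 at 154783 to 184708 in replicate 2. The median score from the dense portion onward exceeded that before it by 1.58 in replicate 1 and 1.92 in replicate 2, with no overlap between the 2 sets in either library. These medians rest on 4 clusters against 3 in replicate 1 and 4 against 2 in replicate 2. The onward sets include clusters past the dense portion that only 1 library had. In the series-wide list the sets nearly met, with a highest score of 1.43 before and a lowest of 1.53 onward.

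Set beside Y, the clusters of the sparse portion of X scored low, and the long X clusters scored within the range of Y. In replicate 1 32 of 33 Y clusters, and in replicate 2 32 of 32, scored above every cluster of the sparse portion. In the series-wide list 25 of 29 did. The per-library clusters of the sparse portion were all short, from 1313 to 1929 bp, and the lowest Y scores also lay mostly in short clusters. In replicate 2 both clusters of the sparse portion lay below the lowest Y score, and in replicate 1 1 of 3 did. Averaged by length over all clusters of each scaffold, the scores were 2.71 on Y and 2.76 on X in replicate 1 and 2.65 and 2.59 in replicate 2. The difference between the scaffolds had opposite signs in the 2 libraries and lay within the spread between them.

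**Figure D4:**
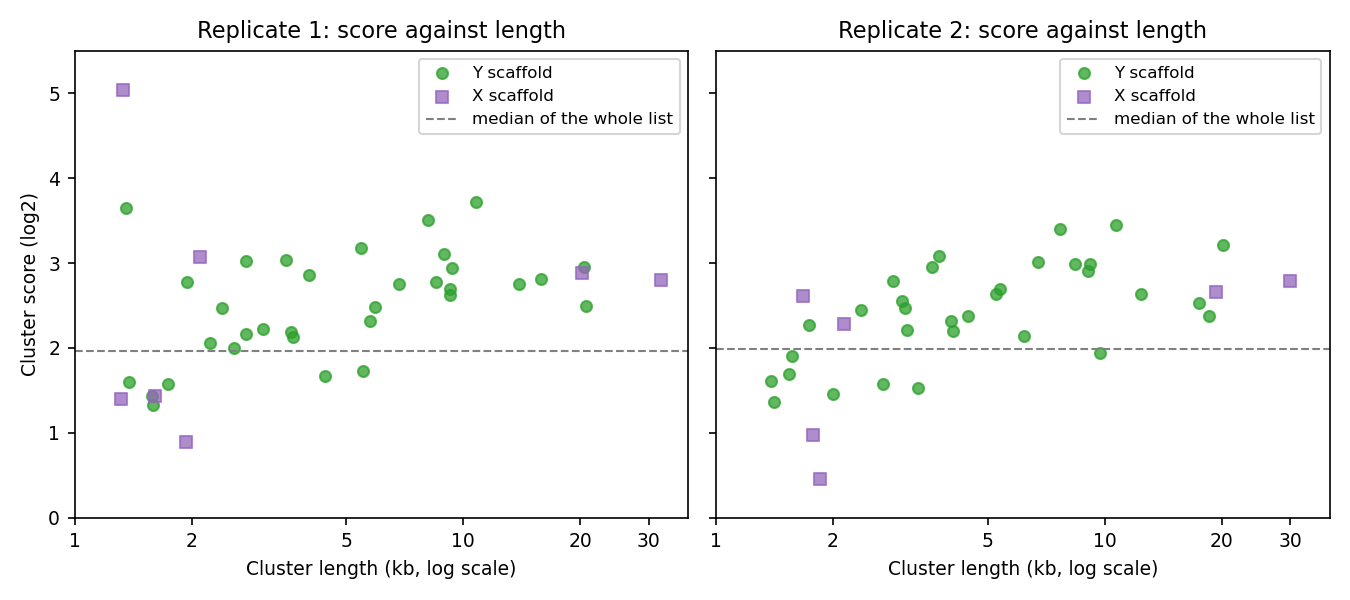
Log2 score against cluster length in kb (log axis) for the Y scaffold (green circles) and the X scaffold (purple squares) in replicate 1 (left) and replicate 2 (right); the dashed line is the median score of the whole list, 1.96 and 1.99. The long clusters of X score within the range of Y, the longest of them exceeds every Y cluster in length, and 1 X cluster in replicate 1 and 2 in replicate 2 score below every Y cluster.

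The last 19.4 kb of X differed most between the lists. In replicate 1 this end held a cluster at 190100 to 192205 with a score of 3.07 and one at 201696 to 203023 with a score of 5.03. The latter, on a cluster of 1328 bp, ranked 6 of all 3395 scores of the list. Replicate 2 had neither; it had 184847 to 186976, which lies inside the long cluster of replicate 1, with a score of 2.28 and 187482 to 189155 with a score of 2.61. The series-wide list had 5 clusters in this end. Of these, 201595 to 203717 scored 4.87, rank 4 of 3941, and 197844 to 198975, which neither library covered, scored 4.47, rank 8. The latter cluster is 1132 bp long, below the 1301 bp of the shortest cluster in either per-library list, and the shortest in the series-wide list is 1001 bp. The high scores at this end thus rest on short clusters that are not shared by both libraries, and how the minimum length bears on this was not tested.

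Positions of shared clusters were close between the libraries. The covered bases had a Jaccard index (bases covered in both over bases covered in either) of 0.845 on Y and 0.876 on X, beside 0.912 on 2L, 0.946 on 3L and 0.857 on U. On Y 18 clusters overlapped one to one. Their 36 edges differed by a median of 173 bp, 30 of them by at most 500 bp, and the largest difference was 1517 bp. On X 3 clusters overlapped one to one, with 6 edges that differed by a median of 92 bp and at most 467 bp. The start at 51337 was the same in both libraries. These distances leave out clusters that were split or absent in the other library. In replicate 1, 5 of 33 Y clusters and 3 of 7 X clusters overlapped none of replicate 2. In replicate 2, 2 of 32 Y clusters and 1 of 6 X clusters overlapped none of replicate 1.

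Scores of the 18 paired Y clusters had a Spearman's rho of 0.756 between the libraries, and 14 of 18 differed by at most 0.5. Replicate 2 minus replicate 1 ranged from -0.84 at 224313 to 232838 to 0.47 at 326463 to 329030, with a median of -0.09. The 3 pairs on X all scored lower in replicate 2, with differences of -0.23 to -0.46. Whether the scores of both lists share a scale is unknown, so the sizes of these differences are not read further.

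Stretches of at least 1 kb covered in replicate 1 only numbered 7 on Y and 3 on X, and those in replicate 2 only 4 on Y and 1 on X. On Y replicate 1 alone covered 40370 to 44788 (4419 bp), 282486 to 284435 (1950 bp), 51366 to 53106 (1741 bp), 53124 to 54705 (1582 bp), 59368 to 60814 (1447 bp), 316298 to 317653 (1356 bp) and 206212 to 207319 (1108 bp). Of these 7, 4 lay between 40370 and 60814, where replicate 2 had no cluster. Replicate 2 alone covered 2361 bp from 12745 to 15105, 1998 bp from 32991 to 34988, 1517 bp from 232839 to 234355 and 1017 bp from 242274 to 243290. On X they were at 190100 to 192205, 201696 to 203023 and 100206 to 101518 for replicate 1 and at 187482 to 189155 for replicate 2. The series-wide list covered each of these stretches to at least 96.4% on Y and 96.6% on X.

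The series-wide list added more separate clusters on X than on Y. Of its 14 X clusters, 4 overlapped both libraries, 4 overlapped 1 and 6 (42.9%) overlapped neither. Of its 29 Y clusters, 24 overlapped both, 4 overlapped 1 and 1 (3.45%), at 57286 to 59034 with a score of 1.08, overlapped neither. The share overlapping neither was 0 of 22 on 2L, 14.5% on 3L, 11.9% on U and 20.1% over all 3941 clusters of the list. Of the 6 on X, 4 lay in the sparse portion, at 56911 to 58207 (0.74), 93972 to 96145 (1.16), 117031 to 119009 (1.43) and 124681 to 126364 (1.08), and the others in the last 19.4 kb, at 194048 to 196397 (2.89) and 197844 to 198975 (4.47). In windows, the series-wide list marked 237 of 348 on Y (68.1%) and 74 of 205 on X (36.1%), against 17.9% over all 13 sequences. It marked 16 Y windows (4.60%) and 11 X windows (5.37%) that neither library marked, where all sequences gave 1.66%. No base was covered in any of the 3 lists in 87 of 348 Y windows and 115 of 205 X windows (56.1%), against 79.7% of all windows. By its label this list stands for both replicates, so it is no independent sample.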

How the data were processed

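The labels name 2 ChIP and 2 input libraries. Bowtie 0.12.7 is listed in the submitters' processing notes, and FlyBase release 5 is the genome build per the file headers. No source used here names the caller, the threshold, or how reads that match several places were handled. The authors deposited positions and a score in log2 steps for each cluster, as 1 list per ChIP library plus a series-wide list for the set of replicates, whose making is not stated. The lists hold no read counts, and the depth is therefore unknown.

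Covered shares, windows of 1 kb (the last of each scaffold is shorter), stretches and overlaps were computed in Python 3.11.15 with numpy 2.4.6, scipy 1.17.1 and matplotlib 3.10.9. Clusters past a sequence end were cut there, which touched none on Y or X. Scaffold lengths may include unsequenced bases. Means ± SD are over both ChIP libraries, whose spread may be technical. The functions were tested on simulated data. The windows follow from position alone, but the scaffolds and the rules for what is named were chosen with earlier results of these data known. Named were all X clusters, the 10 longest blocks and gaps of Y, its 3 highest and 3 lowest scores per library and all stretches of at least 1 kb in 1 library only. The gene table at hand is of release 6, so no gene was placed and no sequence is shown.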

Additional observations from a re-analysis of the deposited data

How the results depend on the processing

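The direction of the difference between Y and X held under all alternatives run. Of 33 alternative values, 24 stayed within the limits set (1 SD for shares, a factor of 1.5 for windows). A further 6, the shares with 1 library left out, could not leave them, since each of 2 values lies within 1 SD of their mean. All window values stayed within their wide limit. The 9 values that moved were all covered shares, their difference or Jaccard indices, and every Jaccard alternative moved. Dropping clusters that score under the median of their list gave a covered share of 52.7% on Y and 26.7% on X, a difference of 26.0 points, and a Jaccard index of 0.822 on Y and 0.892 on X. The series-wide list gave covered shares of 67.6% and 37.0%. Joining clusters less than 1 kb apart gave a Jaccard index of 0.859 on Y and 0.872 on X. Fewer clusters can only cover less; for the remaining shifts the cause was not tested. The Jaccard index was judged against its binomial 95% interval over bases, which is too narrow because it treats bases as independent, which they are not. Leaving out 1 library gave covered shares of 56.7 to 60.2% on Y and 27.8 to 29.8% on X, and a difference of 28.9 to 30.4 points. Marked windows ranged from 48.0 to 68.1% on Y and from 24.9 to 36.1% on X over the score limit, other marking limits (25% and 75%), grids, window lengths (500 bp and 2 kb) and lists. No paired analysis was possible because the input libraries, which share the replicate numbers of the ChIP libraries, had no values here; Y and X were compared within each ChIP library.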
